A study of Homo sapiens with 9 samples.

Results

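The genes described here encode the insulin receptor (INSR), the related receptor for insulin-like growth factor 1 (IGF1R), the receptor substrates IRS1 and IRS2, and 6 proteins that restrain these receptors: the adaptors GRB10 and GRB14, the tyrosine phosphatase PTPN1, the suppressors of cytokine signalling SOCS2 and SOCS3, and the membrane protein ENPP1. All probe sets that the platform annotation assigned to these 10 genes, by current symbol or alias, were taken, which gave 31 probe sets of 44988 with a single gene symbol. The arrays held such probe sets for 18132 genes in all. Of the 31, 25 lay above a brightness filter that left out the dimmest 40 percent of probe sets by mean over all arrays (below 4.74 log2), and all 10 genes kept at least 1 probe set.

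Messenger RNA was measured on 9 one-colour Affymetrix arrays, 3 in each of 3 groups. HepG2 is a human liver tumour line, and R-HepG2 is the name in the labels for a form of it made insulin resistant. Cells spent a night without serum and then 4 h in medium alone, in insulin at 40 ug/ml, or in biomineralized insulin at 40 ug/ml. Growth and treatment notes speak of R-HepG2 in every group, but the tag for the line is R-HepG2 on medium arrays and HepG2 on those of both treated groups, so a difference of cell form and a difference of treatment cannot be told apart in the comparisons with medium if the tags are right. No group received the mineral without insulin. The labels do not tell whether replicates were separate cultures, and the p-values cover only the spread between these arrays, which may be technical. Both comparisons with medium use the same 3 medium arrays.

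The values did not bear out the liver label. Of 12 hepatocyte markers, 10 were measured and 4 passed the brightness filter (APOA1, TF, TTR and AHSG). Albumin (ALB), the main liver secretory protein, had a mean of 3.28 ± 0.02 log2 (SD, n = 3) in medium, alpha-fetoprotein (AFP) 3.00 ± 0.09 and apolipoprotein B (APOB) 2.88 ± 0.08, all below the filter in every group. Among the markers of other cell types, 5 of 7 lung epithelium genes, 5 of 6 measured fibroblast genes, 4 of 4 endothelium genes, 1 of 4 measured leukocyte genes and 1 of 2 measured kidney epithelium genes passed it. The endothelium genes had group means of only 4.87 to 5.66 log2, and CD3E, the leukocyte gene that passed, 4.67 to 4.84. Background control features averaged 2.29 to 9.86 log2, so passing the filter alone does not show that a gene was expressed. The summed level of the lung list lay between 8.98 and 9.01 log2 in biomineralized insulin against 8.84 to 8.87 in medium and 8.84 to 8.93 in insulin. For the fibroblast list the range was 9.24 to 9.30 in biomineralized insulin, 9.10 to 9.20 in medium and 9.14 to 9.22 in insulin. The hepatocyte list ranged from 7.88 to 7.94, 7.76 to 7.90 and 7.79 to 7.92 in the same order. The endothelium list gave 7.24 to 7.25, 7.04 to 7.28 and 7.19 to 7.26, the leukocyte list 5.58 to 5.79, 5.46 to 5.70 and 5.56 to 5.72, and the kidney list 6.25 to 6.34, 6.21 to 6.30 and 6.10 to 6.29. The sums are of linear values, so the brightest genes weigh most, and the genes of a list did not move together. From medium to biomineralized insulin the fibroblast gene DCN went from 7.97 to 8.29 log2, PDGFRB from 6.25 to 5.83 and COL1A1 from 5.54 to 5.34. In the lung list NKX2-1 went from 6.14 to 6.73 and FOXA1 from 7.61 to 7.58. The part of these differences in the results was not tested.

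Insulin binds its receptor at the cell surface and switches on the tyrosine kinase inside the cell, which phosphorylates the IRS proteins. These recruit phosphatidylinositol 3-kinase, and the signal passes to AKT, which drives glucose uptake, glycogen storage and lipid synthesis. In the liver IRS1 and IRS2 carry most of this signal, and IRS2 transcription is driven by FOXO factors in the fasted state. The receptor is held back at several points. GRB10 and GRB14 bind the active kinase domain and block it, PTPN1 (also called PTP1B) removes the activating phosphates, SOCS proteins bind receptors and bring ubiquitin ligases to them, and ENPP1 binds the outer part of the insulin receptor and hinders its activation.

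The sequences around the transcription starts of the receptors and substrates are shown. INSR with IGF1R, and IRS1 with IRS2, moved differently on the arrays. So did GRB10 with GRB14 and SOCS2 with SOCS3, whose sequences are not shown. Those shown run from 250 bases before the annotated start to 50 bases after it, on the gene's strand from 5' to 3', and come from RefSeq (GRCh38.p14). INSR lies at chr19:7294365-7294664 on the minus strand, IGF1R at chr15:98648289-98648588 on the plus strand, IRS1 at chr2:226799771-226800070 on the minus strand and IRS2 at chr13:109786534-109786833 on the minus strand. Capitals mark every match to the motifs searched on both strands: FOXO (GTAAACA), the ATF4 and CHOP composite (TGATGNAA), STAT (TTCNNNGAA), the CREB core (TGACG), the E-box (CACGTG), heat shock (GAANNTTC) and SP1 (GGGCGG).
INSR: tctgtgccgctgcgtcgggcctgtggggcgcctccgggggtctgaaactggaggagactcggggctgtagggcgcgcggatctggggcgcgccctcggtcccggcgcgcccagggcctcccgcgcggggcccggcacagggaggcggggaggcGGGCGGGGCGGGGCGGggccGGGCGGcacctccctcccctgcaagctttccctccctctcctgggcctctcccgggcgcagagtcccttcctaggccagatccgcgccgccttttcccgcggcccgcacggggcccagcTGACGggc
IGF1R: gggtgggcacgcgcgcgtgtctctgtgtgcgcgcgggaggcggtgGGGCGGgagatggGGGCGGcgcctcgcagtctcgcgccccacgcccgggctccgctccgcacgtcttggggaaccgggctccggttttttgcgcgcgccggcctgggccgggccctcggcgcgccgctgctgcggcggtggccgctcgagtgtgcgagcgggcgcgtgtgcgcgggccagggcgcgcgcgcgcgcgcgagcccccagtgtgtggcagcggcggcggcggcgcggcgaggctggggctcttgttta
IRS1: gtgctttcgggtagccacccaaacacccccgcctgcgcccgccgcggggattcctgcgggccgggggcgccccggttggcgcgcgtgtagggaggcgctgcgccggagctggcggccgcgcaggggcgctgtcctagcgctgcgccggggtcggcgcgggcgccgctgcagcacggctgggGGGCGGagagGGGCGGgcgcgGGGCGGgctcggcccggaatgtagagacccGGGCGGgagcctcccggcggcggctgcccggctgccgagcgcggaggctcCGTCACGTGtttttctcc
IRS2: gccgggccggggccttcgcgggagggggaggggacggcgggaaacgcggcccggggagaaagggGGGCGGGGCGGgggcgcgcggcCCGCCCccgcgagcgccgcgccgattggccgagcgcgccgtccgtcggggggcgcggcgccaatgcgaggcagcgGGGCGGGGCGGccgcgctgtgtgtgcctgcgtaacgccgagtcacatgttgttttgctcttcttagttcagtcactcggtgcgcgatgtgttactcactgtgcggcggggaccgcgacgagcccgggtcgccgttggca

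These 4 windows were rich in G and C, with 78.3% for INSR, 79.7% for IGF1R, 79.3% for IRS1 and 75.7% for IRS2, against a median of 58.7% over 35116 promoter windows of the same length. Among the windows not shown, those of GRB10 ranged from 33.7% to 81.7%, and those of GRB14 were 41.3% and 81.7%. SP1 matches numbered 4 in INSR, 2 in IGF1R, 4 in IRS1 and 5 in IRS2, and 45% of all windows held at least 1. INSR and IRS1 each held 1 CREB core, a motif found in 24.6% of all windows. In IRS1 it overlapped an E-box, a motif found in 7.26% of all windows. Promoter windows were found for 9 of the 10 genes, with 15 windows in all because some genes have several annotated starts. SOCS2 was not matched. SP1 was matched in 9 of the 15 windows, the CREB core in 4 and the E-box in 1. FOXO, the ATF4 and CHOP composite, STAT and heat shock had no match in these 15 windows, and the shares of all windows holding them were 3.42%, 3.62%, 7.66% and 6.77%. These are matches of letters and give no measure of binding.

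Biomineralized insulin was accompanied by lower GRB10, SOCS2 and IRS1 messenger RNA and higher IGF1R and IRS2, whereas insulin alone moved these genes little. With each gene represented by its brightest probe set, limma called 8 of the 10 genes changed between biomineralized insulin and insulin at a Benjamini-Hochberg adjusted p under 0.05 over 12239 genes, 4 higher and 4 lower. Of all genes tested, 44.4% were called in that comparison, 21.1% higher and 23.3% lower. Against medium, 8 of 10 genes were called, 3 higher and 5 lower, where 50.9% of all genes were, 25.7% higher and 25.2% lower. In insulin against medium limma called 1 of 10, a lower one, where 2.45% of all genes were called, 1.25% higher and 1.2% lower. There 3 of 10 had an unadjusted limma p under 0.05, as had 1928 of the 12239 genes tested. The counts of the 10 genes are to be read against these shares. The median change of the 10 genes was 0.05 log2 in biomineralized insulin against insulin, beside 0.02 over all genes tested. It was -0.06 against medium, beside 0.02, and 0.01 in insulin against medium, beside 0.01. The groups did not overlap for 9 of 10 genes in biomineralized insulin against insulin (52.7% of all genes), 8 of 10 against medium (56.6%) and 1 of 10 in insulin against medium (18.3%). Changes of at least 1.5-fold that were also called numbered 3, 4 and 0 of 10 in that order, against 5.2%, 7.11% and 0.0163% of all genes. The 10 genes were chosen with earlier results of these data known, so these counts are no test of the set. The poly-A spike-ins, RNA added in fixed amounts during labelling, averaged 7.81 ± 0.17 log2 in biomineralized insulin, above 7.36 ± 0.08 in medium and 7.39 ± 0.06 in insulin (SD, n = 3), without overlap. When arrays were centred on them, the median of all genes moved to -0.40 log2 in biomineralized insulin against insulin and to -0.42 against medium, and 78.5% and 78% of all genes tested were called. Of the 10 genes, 8 were called in each comparison under that scaling, which was close to those shares, and 6 of them were also called as deposited. IRS2 and GRB14 lost their calls in both. INSR and ENPP1 were gained against insulin and INSR and PTPN1 against medium, all of them lower, and PTPN1 against insulin was called with its sign turned. IGF1R was the 1 gene of the 10 called higher. Because they were added during labelling, the spike-ins give no measure of RNA per cell, and what raised them in biomineralized insulin was not tested. Lower messenger RNA within cells and fewer cells of a type cannot be told apart in these bulk arrays.

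**Figure D1:**
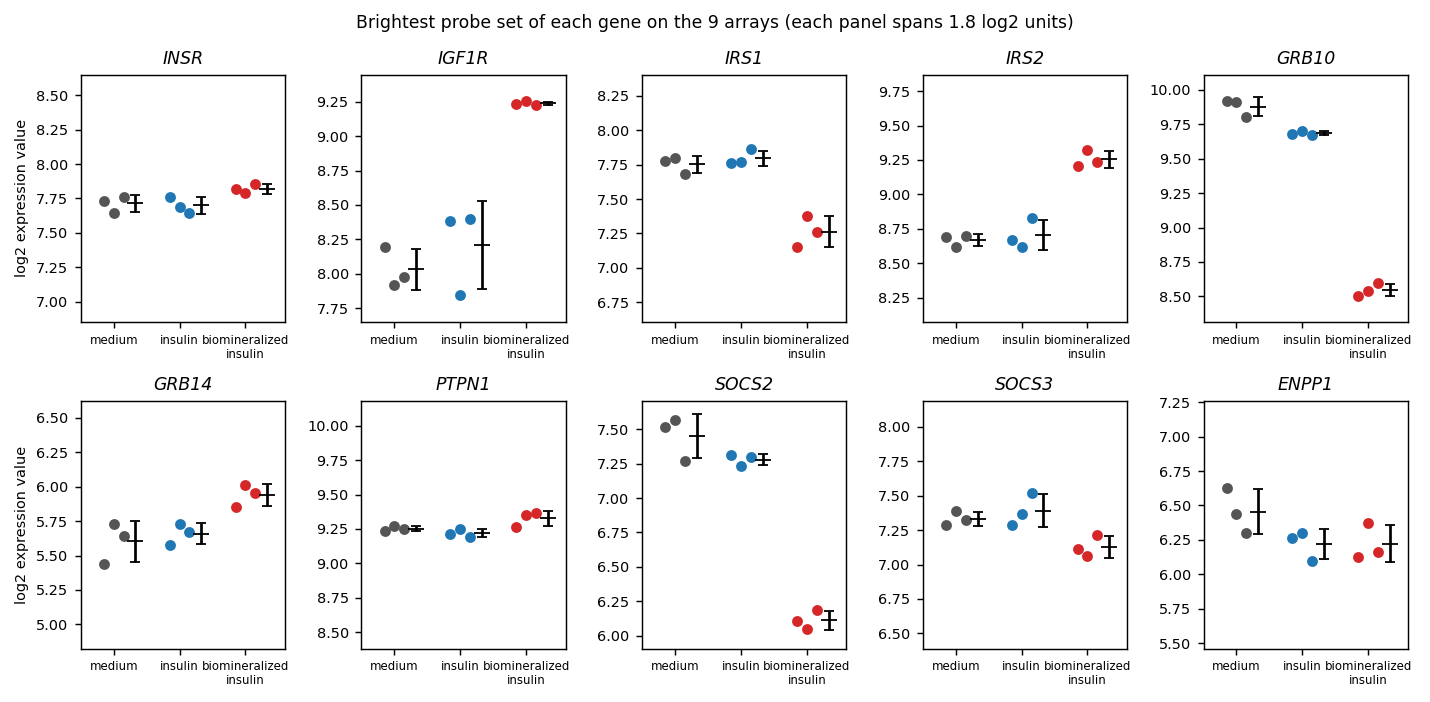
Log2 expression of the brightest probe set of each of the 10 genes on each of the 9 arrays, with 1 panel per gene, points for arrays and bars for group means. IGF1R and IRS2 were higher and GRB10, SOCS2 and IRS1 lower on all 3 biomineralized insulin arrays than on the other 6 as deposited, and with arrays centred on the poly-A spike-ins IRS2 was no longer called.

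INSR, the insulin receptor, kept nearly 1 level across the study. Its brightest probe set read 7.73, 7.65 and 7.76 log2 in medium, 7.76, 7.69 and 7.65 in insulin and 7.82, 7.79 and 7.86 in biomineralized insulin. The biomineralized insulin arrays were the highest of the 9 by a narrow margin, and the medium and insulin arrays overlapped. The difference from insulin was 0.12 ± 0.05 log2 (SE, 95% interval 0.01 to 0.23, limma adjusted p = 0.082) and that from medium 0.11 ± 0.05 (interval -0.01 to 0.22, limma adjusted p = 0.11), so neither passed the test. Insulin differed from medium by -0.02 log2 (interval -0.13 to 0.10, limma adjusted p = 0.94). The other 3 probe sets of INSR above the filter differed by -0.06 to 0.10 log2 between biomineralized insulin and insulin and by -0.12 to 0.00 between biomineralized insulin and medium, and limma called none of them. With arrays quantile normalized again, INSR passed in both comparisons (0.15 log2 in each, limma adjusted p = 0.043 against insulin and 0.038 against medium). With arrays centred on the poly-A spike-ins the sign turned, to -0.29 (adjusted p = 0.024) and -0.34 log2 (adjusted p = 0.0097).

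IGF1R, which binds insulin-like growth factors and forms hybrids with the insulin receptor, rose in biomineralized insulin. It read 8.20, 7.92 and 7.98 log2 in medium, 8.38, 7.84 and 8.40 in insulin and 9.23, 9.25 and 9.23 in biomineralized insulin. The last 3 arrays lay close together and well above the other 6, while insulin replicate 2 sat below all 3 medium arrays. The rise over insulin was 1.03 ± 0.11 log2 (2.04-fold, limma adjusted p = 9.9e-07) and that over medium 1.21 ± 0.11 (2.31-fold, limma adjusted p = 1.2e-07). All 4 probe sets above the filter rose, by 0.50 to 1.03 log2 over insulin and by 0.57 to 1.21 over medium, and with the arrays centred on the spike-ins the brightest rose over insulin by 0.62 log2 while another of the 4 gave 0.09 (adjusted p = 0.50). In insulin against medium the difference of 0.18 ± 0.11 log2 did not pass (limma adjusted p = 0.47). Without insulin replicate 2 it became 0.36 log2 and passed (limma adjusted p = 0.0096, with 0.0096 to 1.0 over all alternatives).

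IRS1 and IRS2, the docking proteins phosphorylated by the receptors, moved in opposite directions in biomineralized insulin. IRS2 read 8.69, 8.62 and 8.70 log2 in medium, 8.67, 8.62 and 8.83 in insulin and 9.21, 9.33 and 9.24 in biomineralized insulin. IRS1 read 7.78, 7.80 and 7.68 in medium, 7.76, 7.77 and 7.86 in insulin and 7.15, 7.38 and 7.26 in biomineralized insulin. Medium and insulin arrays overlapped for both genes, and the biomineralized insulin arrays stood apart, above for IRS2 and below for IRS1. IRS2 rose by 0.55 ± 0.06 log2 over insulin (1.46-fold, limma adjusted p = 4.9e-07) and by 0.59 ± 0.06 over medium (limma adjusted p = 1.6e-07). IRS1 fell by 0.53 ± 0.06 log2 against insulin (1.45-fold, limma adjusted p = 3e-06) and by 0.49 ± 0.06 against medium (1.40-fold, limma adjusted p = 6.2e-06). Insulin alone moved neither past the test, with 0.04 log2 for IRS2 (limma adjusted p = 0.81) and 0.05 for IRS1 (limma adjusted p = 0.80).

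The probe sets of IRS2 gave the same picture and those of IRS1 did so in part. Both IRS2 probe sets rose, by 0.55 and 0.63 log2 over insulin and by 0.59 and 0.73 over medium. Of 3 IRS1 probe sets, the brightest fell in both comparisons, a second fell against insulin (-0.27 log2, limma adjusted p = 0.028 over probe sets) and gave -0.22 against medium (adjusted p = 0.057), and the third gave -0.09 and -0.07 without a call. The call of the second was lost without insulin replicate 1 (adjusted p = 0.083) or 2 (0.10) or biomineralized insulin replicate 1 (0.12) or 3 (0.055), with 1.1e-05 to 0.12 over the alternatives. With arrays centred on the poly-A spike-ins, the rise of IRS2 shrank to 0.14 log2 over insulin (limma adjusted p = 0.26) and 0.15 over medium (adjusted p = 0.23) and no longer passed, while IRS1 kept its direction.

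**Figure D2:**
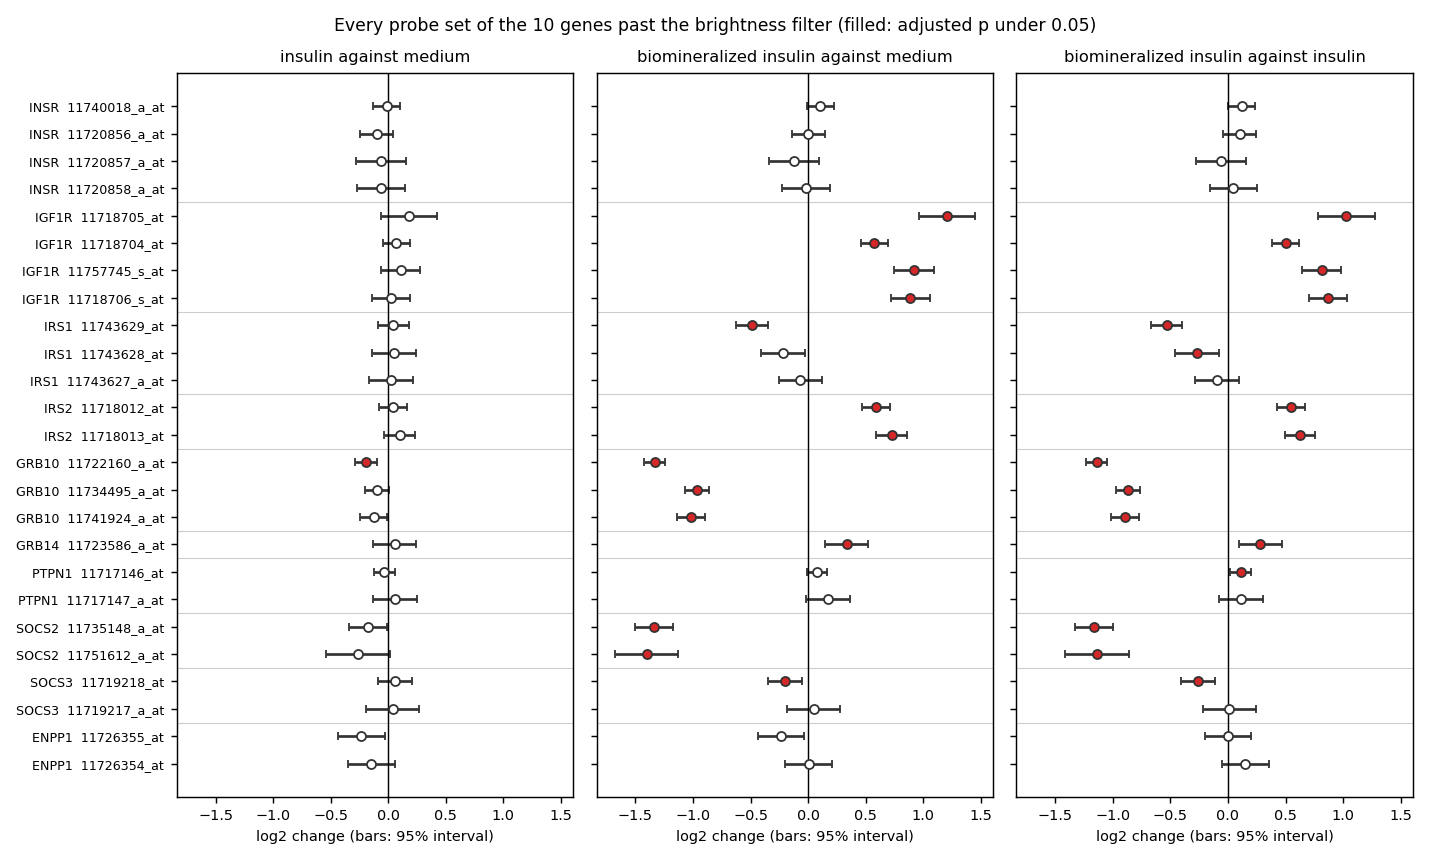
Log2 change of each of the 25 probe sets above the brightness filter, grouped by gene, in the comparisons of the study, with filled points for adjusted p under 0.05. In biomineralized insulin all probe sets of IGF1R and IRS2 lie above 0 and all of GRB10 and SOCS2 below 0 as deposited, and with arrays centred on the poly-A spike-ins the IRS2 gene value is 0.14 log2 over insulin and not called. The second SOCS2 probe set lay below the brightness filter on the biomineralized insulin arrays.

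GRB10, an adaptor that binds the active receptor kinase and is stabilised by the mTOR complex, had the clearest fall among the brakes. It read 9.92, 9.91 and 9.80 log2 in medium, 9.68, 9.71 and 9.67 in insulin and 8.50, 8.54 and 8.59 in biomineralized insulin. The groups did not overlap, with medium highest, insulin slightly below it and biomineralized insulin far below both. It fell by 1.14 ± 0.04 log2 against insulin (2.21-fold, limma adjusted p = 3.6e-12) and fell by 1.33 ± 0.04 against medium (2.52-fold, limma adjusted p = 3.6e-13). All 3 probe sets fell in both comparisons, by -0.87 to -1.14 log2 against insulin and by -0.97 to -1.33 against medium.

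GRB10 was also the 1 gene of the 10 that limma called in insulin against medium, by -0.19 ± 0.04 log2 (1.14-fold, adjusted p = 0.029). Its other probe sets gave -0.10 (adjusted p = 0.38) and -0.13 log2 (adjusted p = 0.32) there and were not called, so 1 of the 25 probe sets was called, where 1.23% of all probe sets were. Leaving out medium replicate 1 (adjusted p = 0.088) or 2 (0.13), or insulin replicate 1 (0.088) or 3 (0.14), ended the call, and the adjusted p ranged from 0.0085 to 1.0 over all alternatives. The 3' to 5' signal difference of beta-actin, a measure of RNA length, was 3.11 to 3.27 log2 on the insulin arrays and 2.96 to 3.08 on the medium arrays, and its part in this result was not tested.

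GRB14, the related adaptor that sits in the kinase's active site as a pseudosubstrate, went the other way as deposited. It read 5.44, 5.73 and 5.64 log2 in medium, 5.58, 5.73 and 5.67 in insulin and 5.85, 6.01 and 5.96 in biomineralized insulin. The biomineralized insulin arrays were the highest, with a small gap to the rest. The rise was 0.28 ± 0.09 log2 over insulin (1.21-fold, limma adjusted p = 0.014) and 0.34 ± 0.09 over medium (1.26-fold, limma adjusted p = 0.0036), and the sign turned with arrays centred on the poly-A spike-ins (-0.13 and -0.10 log2, neither called). The call over insulin was lost without insulin replicate 1 (adjusted p = 0.065) or biomineralized insulin replicate 2 (adjusted p = 0.061), within a range of 0.007 to 0.36 over the alternatives.

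PTPN1, the phosphatase that dephosphorylates the insulin receptor, differed little between groups. It read 9.23, 9.27 and 9.25 log2 in medium, 9.21, 9.25 and 9.19 in insulin and 9.27, 9.35 and 9.37 in biomineralized insulin. The lowest biomineralized insulin array lay just below the highest medium array and just above the highest insulin array. The rise over insulin of 0.11 ± 0.04 log2 (1.08-fold) passed (limma adjusted p = 0.039) and the difference of 0.08 ± 0.04 from medium did not (limma adjusted p = 0.13). The first was lost without insulin replicate 1 (adjusted p = 0.088), insulin replicate 3 (0.12), biomineralized insulin replicate 2 (0.11) or biomineralized insulin replicate 3 (0.14), with a range of 0.012 to 0.37 over the alternatives, and its sign turned to -0.30 log2 with arrays centred on the spike-ins (adjusted p = 0.013). The second probe set gave 0.11 log2 over insulin and 0.17 over medium, not called.

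SOCS2, which restrains growth hormone receptor signalling and binds IGF1R, fell about as far as GRB10. It read 7.52, 7.57 and 7.27 log2 in medium, 7.31, 7.23 and 7.30 in insulin and 6.10, 6.05 and 6.18 in biomineralized insulin. All 3 biomineralized insulin arrays lay more than 1 log2 unit below the lowest of the other arrays, which overlapped between medium and insulin. It fell by 1.17 ± 0.08 log2 against insulin (2.25-fold, limma adjusted p = 2.7e-09) and fell by 1.34 ± 0.08 against medium (2.53-fold, limma adjusted p = 3.8e-10). The second probe set changed by -1.14 and -1.40 log2 in the same comparisons. In insulin against medium SOCS2 differed by -0.17 ± 0.08 log2 without passing the test (limma adjusted p = 0.27).

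SOCS3, an inducible inhibitor that binds the insulin receptor and marks IRS proteins for degradation, fell less. It read 7.29, 7.39 and 7.32 log2 in medium, 7.29, 7.37 and 7.52 in insulin and 7.11, 7.06 and 7.21 in biomineralized insulin. The biomineralized insulin arrays were the lowest, and medium and insulin overlapped. It fell by 0.26 ± 0.07 log2 against insulin (limma adjusted p = 0.004) and fell by 0.20 ± 0.07 against medium (1.15-fold, limma adjusted p = 0.018). The second probe set, near the brightness limit, gave 0.01 and 0.05 log2 and was not called, and with the mean of both probe sets the call against insulin was lost (-0.13 log2, adjusted p = 0.098, the highest of a range from 4.7e-07). Leaving out medium replicate 2 (adjusted p = 0.072) or biomineralized insulin replicate 1 (0.052) or 2 (0.077) ended the second call, with 1.3e-06 to 0.29 over the alternatives.

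ENPP1, the ectoenzyme that binds the insulin receptor and hinders its activation, was slightly below medium in both treated groups. It read 6.62, 6.44 and 6.30 log2 in medium, 6.27, 6.30 and 6.10 in insulin and 6.12, 6.38 and 6.17 in biomineralized insulin. The medium arrays were spread out and overlapped both treated groups. The difference from medium was -0.24 ± 0.09 log2 in biomineralized insulin (1.18-fold, limma adjusted p = 0.042) and -0.23 ± 0.09 in insulin (limma adjusted p = 0.21), while the treated groups differed by 0.00 log2 (95% interval -0.20 to 0.19). The call in biomineralized insulin was lost without medium replicate 1 (-0.15 log2, adjusted p = 0.21), medium replicate 2 (0.079), insulin replicate 1 (0.053), biomineralized insulin replicate 1 (0.16) or biomineralized insulin replicate 3 (0.12), with a range of 1.5e-06 to 0.21 over the alternatives. The second probe set gave 0.01 log2 against medium and was not called.

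Counted over all 25 probe sets, limma called 16 in biomineralized insulin against insulin, where 38.9% of all probe sets were called, and 14 in biomineralized insulin against medium, where 46% were. Called changes of at least 1.5-fold numbered 9 and 10 in these comparisons, against 4.91% and 6.99% of all probe sets, and 0 in insulin against medium, against 0.0184%. Probe sets of 1 gene share their transcript and are not separate observations of a condition. The second SOCS2 probe set, called in both comparisons of biomineralized insulin, passed the filter only through its medium and insulin arrays. The genes were chosen with earlier results of these data known, so these counts are also no test of the set.

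Differences between related genes within an array do not move with the centring of that array. IRS2 minus IRS1 was 0.91, 0.82 and 1.01 log2 in medium, 0.91, 0.85 and 0.97 in insulin and 2.06, 1.95 and 1.97 in biomineralized insulin. It thus stood 1.08 log2 above both insulin and medium, without overlap. INSR minus IGF1R changed by -0.91 log2 against insulin and by -1.10 against medium, GRB10 minus GRB14 by -1.42 and -1.67, and SOCS2 minus SOCS3 by -0.90 and -1.14. Each of these 8 differences had an exact two-sided permutation p of 0.1, the smallest that 3 arrays against 3 allow, and 0.133 after Benjamini-Hochberg adjustment over the 12 tests. In insulin against medium the exact p was 0.9 for IRS2 minus IRS1 (a change of -0.01 log2), 0.4 for INSR minus IGF1R (-0.19), 0.1 for GRB10 minus GRB14 (-0.25) and 0.2 for SOCS2 minus SOCS3 (-0.23). A difference of this kind shows unequal change of a pair and not which gene moved.

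**Figure D3:**
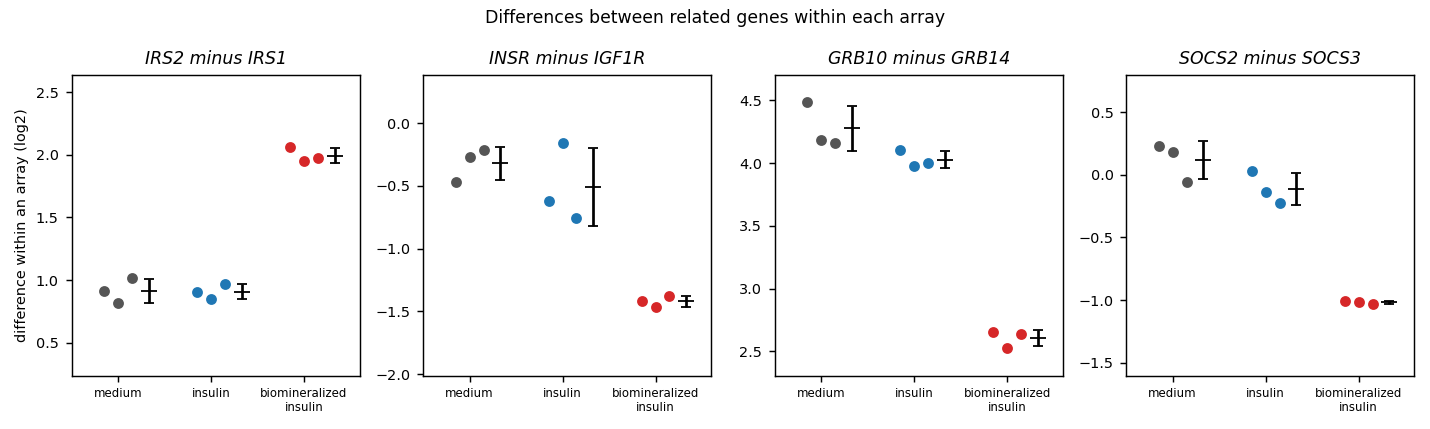
Difference in log2 expression between related genes within each of the 9 arrays, with points for arrays and bars for group means (n = 3). For IRS2 minus IRS1 the biomineralized insulin arrays lie between 1.95 and 2.06, and the other 6 arrays between 0.82 and 1.01.

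Other genes acting at the receptor were taken from 4 lists of 78 genes, of which 69 had a probe set and 56 passed the filter. In biomineralized insulin against insulin 11 of the 56 rose and 17 fell, and against medium 14 rose and 19 fell. These are 50% and 58.9% of the 56, beside 44.4% and 50.9% of all genes tested. Of the 134 probe sets of these lists, 37.3% were called against insulin and 44.8% against medium, beside 38.9% and 46% of all probe sets. The median change over the 56 was 0.03 log2 against insulin and 0.00 against medium. With arrays centred on the poly-A spike-ins 46 of the 56 were called against insulin (82.1%, beside 78.5% of all genes tested). In insulin against medium limma called 2 of 56 (3.57%, beside 2.45% of all genes tested). With probe sets tested singly, 0 of the 134 were called there, beside 1.23% of all probe sets. An unadjusted limma p under 0.05 was found for 5 of the 56 and for 1928 of all 12239 genes tested. PTPRF, a receptor tyrosine phosphatase, rose by 0.22 ± 0.05 log2 (adjusted p = 0.038), and TRIB3, a pseudokinase that binds AKT, fell by 0.14 ± 0.04 (adjusted p = 0.050 after rounding). These calls were lost in 18 of 24 alternatives for PTPRF and 19 of 24 for TRIB3, with adjusted p ranges of 0.0048 to 1.0 and 0.013 to 1.0. Leaving out any 1 array other than insulin replicate 2 ended both calls, and without insulin replicate 3 the PTPRF change was 0.14 log2 (adjusted p = 0.17) and that of TRIB3 -0.11 (adjusted p = 0.27).

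Among the ligands and binding proteins, 1 of 11 tested genes rose and 2 fell in biomineralized insulin against insulin, where 21.1% of all genes tested rose and 23.3% fell. These shares also apply to the counts of the other lists. IGFBP3, the main carrier of insulin-like growth factors in blood, rose by 0.72 ± 0.11 log2 (limma adjusted p = 6.4e-05), and by 0.31 with arrays centred on the spike-ins (adjusted p = 0.012). FURIN, the protease that cuts the receptor precursors, fell by 0.18 ± 0.05 (adjusted p = 0.011), and IGF2R, which clears insulin-like growth factor 2, fell by 0.13 ± 0.04 (adjusted p = 0.015). The IGF2R call was lost without insulin replicate 3 (adjusted p = 0.059) or biomineralized insulin replicate 3 (0.069), within a range of 1.1e-05 to 0.29.

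Of 17 substrates and adaptors, 5 rose and 4 fell. CAV1, the caveolar coat protein that binds the receptor, rose by 0.67 ± 0.04 log2 (adjusted p = 2.5e-10), and GAB2, an IRS-related docking protein, rose by 0.48 ± 0.07 (adjusted p = 2e-05). With arrays centred on the spike-ins the rise of CAV1 was 0.26 (adjusted p = 0.027) and GAB2 gave 0.06 (adjusted p = 0.64) and was no longer called. The ubiquitin ligases CBLB and CBL fell by 0.53 ± 0.08 (adjusted p = 6.8e-05) and 0.27 ± 0.05 log2 (adjusted p = 0.00017), all by limma. CBL no longer passed with its probe set of largest variance (-0.19 log2, adjusted p = 0.43) or the mean of its 4 probe sets (-0.17 log2, adjusted p = 0.06), with 4.2e-08 to 0.43 over the alternatives.

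Of 11 phosphatases, 3 rose and 4 fell. PTPN11 (SHP2), which passes receptor signals to the RAS pathway, rose by 0.28 ± 0.04 log2 (limma adjusted p = 1.4e-05) and PTPRA, a receptor phosphatase, by 0.24 ± 0.07 (limma adjusted p = 0.010), and with arrays centred on the spike-ins both turned, to -0.13 and -0.18. The second probe set of PTPN11 gave 0.02 log2 against insulin as deposited. DUSP6 and DUSP4, phosphatases of ERK kinases, fell by 0.44 ± 0.08 (adjusted p = 0.00018) and 0.42 ± 0.05 log2 (adjusted p = 5.1e-06). The PTPRA call was lost without biomineralized insulin replicate 3 (adjusted p = 0.056), with 0.0033 to 0.17 over the alternatives.

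Of 17 inhibitors and ubiquitin ligases, 2 rose and 7 fell. TRIB3 fell by 2.44 ± 0.04 log2 against insulin (5.42-fold, limma adjusted p = 4.4e-17), from 11.78 ± 0.07 to 9.34 ± 0.01 log2 (SD, n = 3), and fell by 2.58 against medium (5.98-fold). Its second probe set fell less, with -1.60 log2 against insulin and -1.79 against medium. SOCS6 fell by 0.36 ± 0.05 log2 (adjusted p = 2.5e-05), while its second probe set gave 0.10 and the mean of both did not pass (-0.13 log2, adjusted p = 0.065). SOCS5 rose by 0.25 ± 0.05 (limma adjusted p = 0.00067) and FETUB, a relative of fetuin-A, by 0.23 ± 0.09 (limma adjusted p = 0.046, 0.026 to 0.22 over the alternatives), and with arrays centred on the spike-ins both turned, to -0.17 and -0.18. The FETUB call was lost without medium replicate 2 (adjusted p = 0.056), insulin replicate 2 (0.098) or 3 (0.17), or biomineralized insulin replicate 1 (0.14) or 2 (0.14).

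**Figure D4:**
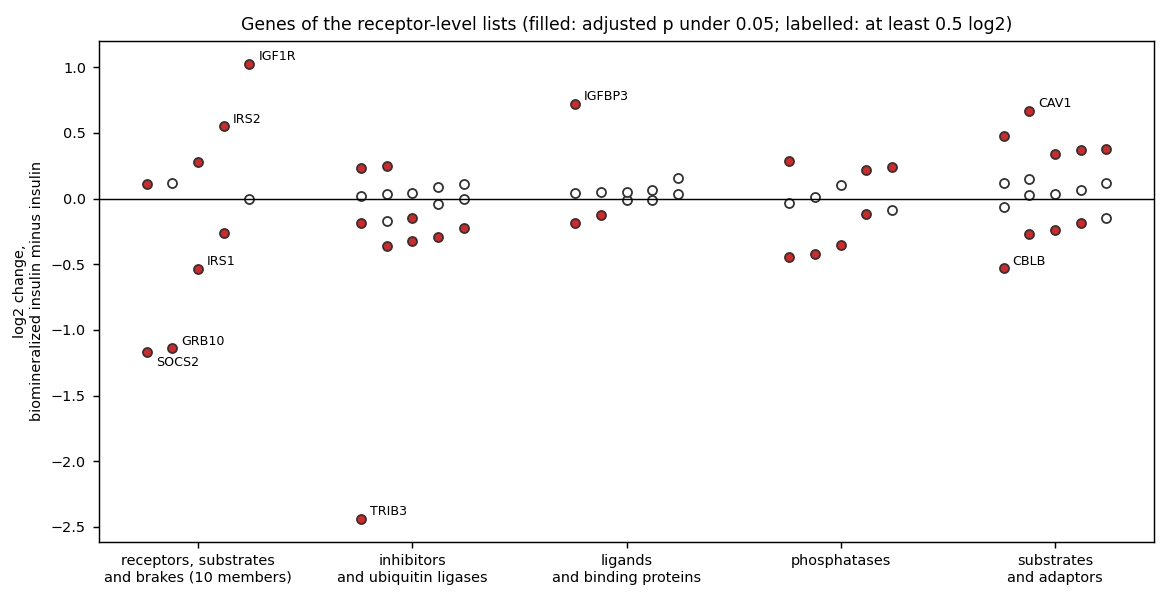
Log2 change in biomineralized insulin against insulin for the 10 described genes and the 56 tested genes of the 4 receptor-level lists, with filled points for adjusted p under 0.05 and names for changes of at least 0.5. TRIB3 lies lowest at -2.44, below SOCS2 at -1.17 and GRB10 at -1.14, and with arrays centred on the poly-A spike-ins SOCS5, FETUB, PTPN11 and PTPRA change sign.

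The genes whose pattern over the 9 arrays was most like that of each of 4 members were listed as a description. For GRB10 they were the organic cation transporter SLC22A4 (Pearson r = 0.9998), the cysteinyl-tRNA synthetase CARS1 (0.9990) and IFRD1 (0.9988). For SOCS2 they were WDR33 (0.9973), R3HDM2 (0.9968) and CEP41 (0.9967). For IRS1 they were SYNJ1 (0.9929), E2F8 (0.9910) and HSPA13 (0.9890), and for IRS2 they were GID4 (0.9967), KDM2B (0.9933) and EIF4EBP2 (0.9915). The arrays fall into groups, so many genes that differ between the same arrays reach such values: 1055 genes had r of at least 0.95 with GRB10, 1008 with SOCS2, 436 with IRS1 and 508 with IRS2.

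**Figure D5:**
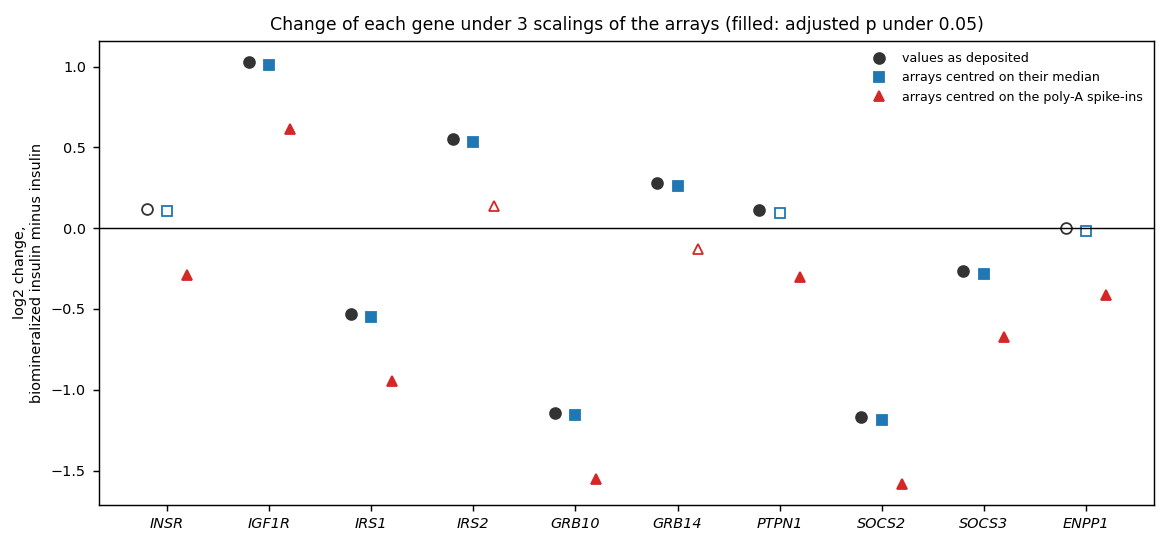
Log2 change of each of the 10 genes in biomineralized insulin against insulin with values as deposited, arrays centred on their median, and arrays centred on the poly-A spike-ins, with filled symbols for adjusted p under 0.05. IGF1R stays above 0 and GRB10, SOCS2, IRS1 and SOCS3 stay below 0 in all 3 scalings, while INSR, PTPN1 and GRB14 change sign with the spike-ins.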

How the data were processed

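Each deposited value is the log2 signal of 1 probe set, from 2.02 to 14.3, with array medians of 5.46 to 5.50. The authors' summarisation, normalization and genome build are not given in the sources used here, and scanner files were not used here, so detection was not examined. Per the labels' protocols, labelling started from the 3' end of messenger RNA. Precision is limited by the number of arrays.

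Of 49395 probe sets, 44988 had 1 symbol, 1832 several, 2473 none and 102 were controls. Symbols of 44961 were updated through Entrez identifiers with RefSeq (GRCh38.p14). Each gene was represented by its brightest probe set with 1 gene, above the 40 percent filter. All 9 arrays entered 1 limma fit (version 3.58.1 in R 4.3.3, moderated by eBayes with trend, without a block, leaving 6 residual degrees of freedom) with Benjamini-Hochberg adjustment over 12239 genes, or over 27220 probe sets. The procedure was checked on simulated data. Same-numbered arrays did not deviate together (correlations of -0.234 to 0.167), so replicate numbers were not taken as pairs. Named were all 10 genes and, per list, up to 2 called genes with the largest rise and 2 with the largest fall in biomineralized insulin against insulin, plus list genes called in insulin against medium. Alternatives covered the block, arrays in the fit, scaling, an offset, filters, probe set choice, variance model, weights, thresholds and each array left out. The members and lists were chosen with earlier results of these data known. Motif windows came from RefSeq. Figures were drawn with matplotlib 3.10.9.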

Additional observations from a re-analysis of the deposited data

How the results depend on the processing

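With the replicate number as a block, limma called 1, 8 and 8 of the 10 genes in insulin against medium, biomineralized insulin against medium and biomineralized insulin against insulin, 0, 15 and 15 of the 25 probe sets, and 0, 32 and 27 of the 56 list genes. In insulin against medium the count of the 10 genes fell from 1 to 0 with only the 6 arrays compared, the poly-A spike-ins, no intensity trend, an adjusted p under 0.01, a 1.5-fold minimum, the probe set of largest variance or the mean of the probe sets, and was 0 to 2 with 1 array left out. Their probe sets gave 0 there with 6 arrays, median centring, the spike-ins, no brightness filter, no trend, the 0.01 limit or the 1.5-fold minimum, and 0 to 1 with 1 array left out. The list genes gave 0 with 6 arrays, the spike-ins, no filter, no trend, the 0.01 limit, the 1.5-fold minimum, largest variance or the mean, 1 with quantile normalization, median centring or without cross-hybridizing probe sets, and 0 to 2 with 1 array left out. At 1.5-fold, 4 genes were called against medium and 3 against insulin, with 9 probe sets against insulin, and 3 list genes in each; the spike-ins gave 46 list genes against insulin.

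Centring on the spike-ins reversed these values, against insulin and medium in turn: INSR -0.29 and -0.34 log2, PTPN1 -0.30 and -0.36, GRB14 -0.13 and -0.10, the second SOCS3 probe set -0.40 and -0.39, further INSR probe sets -0.31 and -0.44, and -0.37 against insulin alone, the second ENPP1 probe set -0.44 against medium, and FETUB -0.18, PTPN11 -0.13, PTPRA -0.18 and SOCS5 -0.17 against insulin. IRS2 minus IRS1 in insulin against medium became 0.055 with the probe set of largest variance, 0.030 with the mean, and -0.054 to 0.042 with 1 array left out. Sign changes of 65 values called under neither setting are left aside. The cause of these shifts was not tested. All-gene counts with the spike-ins were 9606 against insulin (124 higher, 9482 lower) and 9544 against medium (197 higher, 9347 lower), against 5433 and 6230 as deposited.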

Other observations

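The 6 probe sets of the 10 genes below the brightness filter were fitted with limma in a model without it. A pair of dim IGF1R probe sets rose over medium in biomineralized insulin, by 0.43 (adjusted p = 0.0012) and 0.44 log2 (adjusted p = 0.011). Their means were 3.76 and 3.22 log2 in medium, 4.12 and 3.44 in insulin, and 4.19 and 3.67 in biomineralized insulin. Against insulin neither was called (0.07 and 0.23 log2), and the third dim IGF1R probe set and those of ENPP1, INSR and GRB14 were called in no comparison.

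Of the 49395 probe sets, 25701 (52%) had an identical value to 7 decimals on at least 2 of the 9 arrays, and so had 14 of the 31 probe sets described here (45.2%). The second-brightest INSR probe set read 6.371 on 4 arrays, and the second-brightest of ENPP1 read 5.718 on 3. How such ties arose was not tested.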
